A study of Rattus norvegicus with 3 samples.

Results

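The mitochondrial chromosome was represented by 54 of the 33194 records in the kidney RNA of 3 rat strains. They are all records whose listed locus lies on chromosome M, whatever their biotype: 13 protein-coding records, 22 transfer RNA (tRNA) records, 2 ribosomal RNA (rRNA) records and 17 long non-coding RNA records. There was 1 library for each strain. The Dahl S library came from salt-sensitive rats aged 53 days, the SHR library from spontaneously hypertensive rats aged 55 days, and the Dahl R library from salt-resistant rats aged 54 days. All were weaned at 30 days and then fed a diet with 0.3% salt. RNA of the kidney was depleted of rRNA before sequencing, and the series was set up to find long non-coding RNAs. The number of animals behind a library was not given in the sources used here. There were no replicates, so differences are described by size and no p-value can be given. Strain, age and animal cannot be told apart.

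Mitochondrial DNA is a small circle that is transcribed from both strands as long precursors. Most tRNAs sit between the protein and rRNA genes, and their excision cuts the precursor into separate messengers, rRNAs and tRNAs. The proteins are core subunits of the respiratory chain and of ATP synthase, and the rRNAs and tRNAs serve the mitochondrion's own ribosomes. Every other subunit, and all the machinery that copies and transcribes this DNA, comes from nuclear genes. The kidney is rich in mitochondria, above all in the proximal tubule and the thick ascending limb, where ATP drives salt and solute transport.

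Levels are in FPKM, which scales a record's fragments by its length and by how many fragments the library had mapped, and parentheses give the deposited lower and upper limits of a value, whose confidence level is not stated. A ratio is the log2 of FPKM plus 1 in the first library over FPKM plus 1 in the second. A record with a mean of at least 1 FPKM was counted as measured, and as higher or lower in the first library when that ratio was at least 1 in size, a 2-fold difference. The limits of abundant records were erratic. Of the 13 protein-coding records, 5 in Dahl S, 3 in SHR and 6 in Dahl R had a lower limit of 0, while COX1 stood at 22745 (22657–22833) in Dahl S. Read totals were not given, so depth was only implied, by reading the limits of low nuclear records as counting error. On that reading, depth in SHR was 1.70 times that in Dahl S (interquartile range 1.66 to 1.74 over 345 records), and depth in Dahl R was 1.33 times that in Dahl S (1.32 to 1.34 over 425 records). Uromodulin (*Umod*), the defining product of the thick ascending limb, stood at 4028 in Dahl S, 5783 in SHR and 4475 FPKM in Dahl R, and 8 of the 13 mitochondrial protein-coding records had a higher mean than this very abundant kidney messenger.

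The 54 records fell into 23 loci, positions being those of the files, whose genome build was not given in the sources used here. Only 12 records had a locus to themselves, 10 of them tRNAs of 64 to 69 bases and 2 of them coding for COX2 and ND3. The other 42 shared a locus with at least 1 other record, and 7 loci held records of both strands. The locus from 1094 to 3831 of chromosome M alone held 13 records, with an rRNA, ND1, 3 tRNAs and 8 long non-coding records. The use of strand in counting is not given, so reads of records that overlap, or lie on opposite strands, cannot be told apart. Sums of FPKM over a locus are therefore given as well. FPKM is a level per length, so a short record can weigh as much in such a sum as a long one. The sums do not settle which record a read came from.

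The share of all FPKM that lay in mitochondrial records was 21.9% in Dahl S, 28.1% in SHR and 24.8% in Dahl R. Protein-coding records accounted for 11.8% in Dahl S, 13.7% in SHR and 14% in Dahl R. The tRNA records accounted for 7.93% in Dahl S, 11.8% in SHR and 8.44% in Dahl R. Most of the distance between SHR and Dahl R thus lay in the tRNA class, whereas Dahl S was below both other libraries in the protein-coding class. The rRNA records took 1.22% in Dahl S, 1.3% in SHR and 1.24% in Dahl R, and the long non-coding records took 0.998% in Dahl S, 1.24% in SHR and 1.16% in Dahl R. Nuclear records summed to 658007 FPKM in Dahl S, 640123 in SHR and 631016 in Dahl R. In whole kidney RNA, fewer mitochondria-rich cells and less mitochondrial RNA per cell cannot be told apart.

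**Figure D1:**
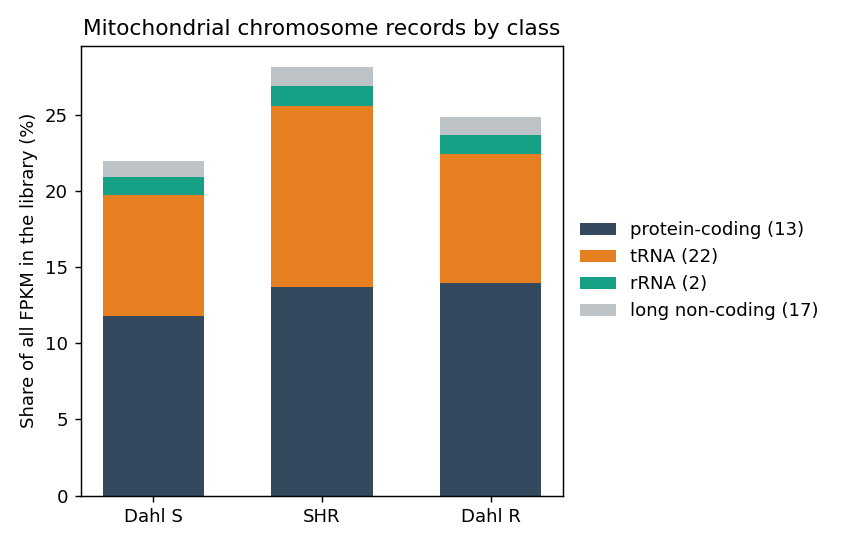
Share of all FPKM (%, vertical axis) taken by mitochondrial records in each kidney library, 1 library per strain, with the 4 classes stacked. The bars reach 21.9% in Dahl S, 28.1% in SHR and 24.8% in Dahl R, and the tRNA segment is 11.8% in SHR against 8.44% in Dahl R.

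By record, 0 of 49 measured members were higher and 3 were lower in Dahl S than in Dahl R, where 2.32% of all measured records were higher and 1.72% lower. Against SHR, 0 members were higher and 16 were lower in Dahl S, or 32.7% of them, beside 2.71% higher and 2.34% lower among all measured records. In SHR over Dahl R, 12 members (24.5%) were higher and 2 were lower, beside 2.52% and 1.88% of all measured records. The deposited limits were apart for 0 of the 3, 8 of the 16 and 4 of the 14. With that added demand, all measured records were higher and lower in 0.877% and 0.81% for Dahl S over Dahl R, 1.36% and 1.24% for Dahl S over SHR, and 1.42% and 1.17% for SHR over Dahl R. With the records of each locus summed, 0 of 23 loci were past 2-fold in Dahl S over Dahl R, 8 in Dahl S over SHR and 7 in SHR over Dahl R. None of these calls was a protein-coding or rRNA record. The 3 comparisons share libraries with one another, so they are not independent.

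The messengers kept a steep order that was nearly the same in the 3 kidneys. COX1, the catalytic subunit of cytochrome c oxidase (complex IV), led at 22745 FPKM in Dahl S, 26719 in SHR and 27431 in Dahl R. ATP6, the proton-channel subunit of ATP synthase, followed at 18983 in Dahl S, 20602 in SHR and 22487 in Dahl R. COX3, another core subunit of complex IV, stood at 14062 in Dahl S, 17901 in SHR and 16137 in Dahl R. Summed with the tRNA record of its locus, COX1 had 39505 in Dahl S, 42110 in SHR and 44115 in Dahl R, and its ratio in Dahl S over SHR was -0.09 in place of -0.23. COX1, ATP6 and COX3 held 56.2% of the protein-coding FPKM of the chromosome in Dahl S, 53.4% in SHR and 56.3% in Dahl R. COX2, which carries the copper site that receives electrons from cytochrome c, came next at 9878 in Dahl S, 12355 in SHR and 10955 in Dahl R. Ranks 1 to 6 and 10 to 13 were held by the same records in every library, and only CYB, ND2 and ND4L traded places. At the bottom, the most abundant record exceeded the least abundant 22.8-fold in Dahl S, 26-fold in SHR and 23.1-fold in Dahl R.

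**Figure D2:**
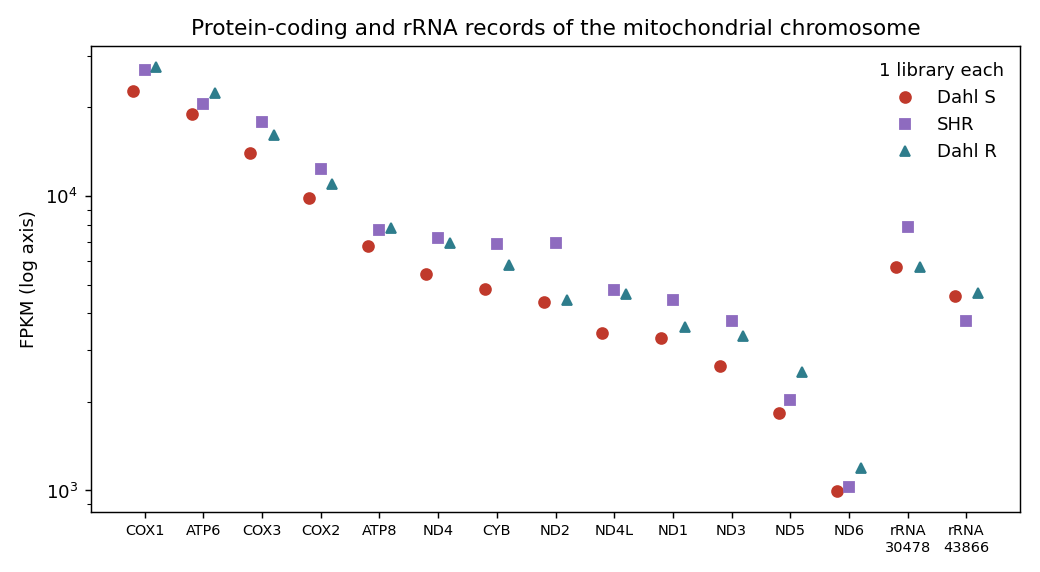
FPKM on a log axis of the 13 protein-coding records, ordered by mean level, and of the 2 rRNA records named by the last digits of their identifiers, with 1 point per library. Dahl S is the lowest of the 3 points for all 13 protein-coding records, which are not independent of one another. The order from COX1 to ND6 is nearly shared, and deposited limits are not drawn because many reach 0.

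All 13 protein-coding records had their lowest value in Dahl S, each within 2-fold of both other libraries. The share of all records that were lowest in Dahl S was not counted. The 13 records stand for messengers cut from shared precursors and were read from the same libraries, so they are not independent of one another. Over the loci that hold them the sum was also lowest in Dahl S, except that the locus of ND2 and a tRNA had 4575 in Dahl S, 7102 in SHR and 4545 in Dahl R. Their median ratio was -0.25 in Dahl S over Dahl R, where nuclear protein-coding records had a median of 0.04, and -0.35 in Dahl S over SHR, where the nuclear median was -0.0015. In SHR over Dahl R the members spread around the nuclear median, at 0.05 beside 0.04, with 8 of 13 above 0. These ratios are small beside the deposited limits, which were apart for COX1 alone in both comparisons of Dahl S; in SHR over Dahl R they were apart for COX1, ATP6 and ND1. Those limits are so narrow, as given above for COX1, that they cannot stand for the difference between animals.

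Complex I, the NADH dehydrogenase through which most electrons enter the chain, has 7 of its subunits on this chromosome. Their median ratio was -0.34 in Dahl S over Dahl R and -0.42 in Dahl S over SHR. ND4, a proton-pumping subunit, stood at 5442 FPKM in Dahl S, 7188 in SHR and 6946 in Dahl R. ND4L, whose gene is listed in the same locus, stood at 3415 (2165–4664) in Dahl S, 4801 (2654–6949) in SHR and 4649.7 (2718–6581) in Dahl R. The sum of that locus was 8857 in Dahl S, 11989 in SHR and 11596 in Dahl R. For both, Dahl S was low and the other two libraries were close together. ND2 had another pattern, with 4376 (1343–7408) in Dahl S, 6904 (0–26073) in SHR and 4438 (0–9040) in Dahl R. Its value in SHR alone was high, with limits that overlapped between every pair of libraries. Its ratio of 0.64 in SHR over Dahl R was the largest of the 13. ND1 stood at 3304 in Dahl S, 4421 in SHR and 3604 in Dahl R, and ND3, alone at its locus, at 2651 (1702–3600.5) in Dahl S, 3751 (2093–5409) in SHR and 3360.3 (2009.8–4711) in Dahl R. Limits overlapped between every pair of libraries for ND3.

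ND5 and ND6 lie on opposite strands in the locus from 11736 to 14130 and were the least abundant messengers. ND5 stood at 1835 in Dahl S, 2026 in SHR and 2517 in Dahl R. ND6, the only protein gene on the minus strand, stood at 999 (672–1325) in Dahl S, 1027 (666–1387) in SHR and 1189 (773–1606) in Dahl R. Both were highest in Dahl R, unlike the other complex I records, which were highest in SHR. Their locus, with 7 records, summed to 3702 in Dahl S, 4163 in SHR and 4855 in Dahl R. The level of ND6 was 0.195 of the median of the 12 plus-strand messengers in Dahl S, 0.146 in SHR and 0.186 in Dahl R.

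CYB, the cytochrome b of complex III, stood at 4822 in Dahl S, 6890.3 in SHR and 5819 in Dahl R, and its locus of 3 records summed to 10792 in Dahl S, 14796 in SHR and 12644 in Dahl R. ATP8, a small subunit of ATP synthase whose gene shares a locus with those of ATP6 and COX3, stood at 6788 (4092–9483) in Dahl S, 7646 (4223–11069) in SHR and 7815 (4277–11354) in Dahl R. The sum of the locus from 7758 to 9382 was 39833 in Dahl S, 46149 in SHR and 46439 in Dahl R. As a class, the complex IV records had a median ratio of -0.20 in Dahl S over Dahl R and -0.32 in Dahl S over SHR, and the 2 ATP synthase records one of -0.22 and -0.14.

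The 2 rRNA records, which serve as the core of the mitochondrial ribosome, lay within the range of the messengers in this depleted RNA. The record from 68 to 1025 (ENSRNOG00000030478) stood at 5740.3 FPKM in Dahl S, 7831 in SHR and 5755 in Dahl R. The record in the locus from 1094 to 3831 (ENSRNOG00000043866) stood at 4563 in Dahl S, 3776 in SHR and 4677 in Dahl R. SHR was thus the high library for the first and the low library for the second, and the ratio between the 2 levels was 1.26 in Dahl S, 2.07 in SHR and 1.23 in Dahl R. The sum of the first locus, with a long non-coding record on its other strand, was 7989 in Dahl S, 10335 in SHR and 8042 in Dahl R. Limits of the first record overlapped in every comparison, and those of the second were apart between SHR, at 3719.9 to 3831, and Dahl R, at 4609.5 to 4744. With the locus of the second record summed, its ratio in SHR over Dahl R was 0.07 in place of -0.31. How far the depletion removed each rRNA in each library was not stated, and its part in these values was not tested.

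SHR had the highest level for 17 of the 22 tRNA records. The share of all records that were highest in SHR was not counted. In Dahl S over SHR, 11 tRNA records were lower, 7 of them with limits apart, and the median ratio was -0.90. Among all measured records, 2.34% were lower there, and 1.24% were lower with limits apart. In SHR over Dahl R, 8 tRNA records were higher, 4 with limits apart, and 2 were lower, with a median of 0.92. A threshold of 0.9 was passed by 15 of 22, 13 of them higher. Of all measured records, 2.52% were higher and 1.88% lower by 2-fold in that comparison. Dahl S and Dahl R differed less, with a median of -0.11 and 3 tRNA records lower in Dahl S, none with limits apart. Of all measured records, 1.72% were lower in Dahl S than in Dahl R. Shares past 2-fold were larger in nuclear records under 100 bases, as given below. The files name the tRNA records by Ensembl identifier and do not pair them with an amino acid.

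For 10 tRNA records no other record is listed at the same locus, although these loci lie right beside others and a fragment longer than the record reaches into a neighbour. The plus-strand record from 11538 to 11605 (ENSRNOG00000033957) stood at 2101 (1488–2714) FPKM in Dahl S, 4505 (3137–5873) in SHR and 2018 (1435–2600.3) in Dahl R. The record from 9383 to 9450 (ENSRNOG00000029389) stood at 198 (112–284) in Dahl S, 486 (325–646) in SHR and 211 (126–295) in Dahl R. The record from 9800 to 9867 (ENSRNOG00000032320) stood at 224 (129–318) in Dahl S, 495 (330.3–659) in SHR and 230.5 (139–322) in Dahl R. For these 3 the Dahl strains were close together and SHR was higher than both, with limits apart. The record from 7693 to 7756 (ENSRNOG00000029070) had the same shape, at 2593 (1836–3351) in Dahl S, 5705 (3984–7426) in SHR and 2891 (2057–3726) in Dahl R, but its ratio over Dahl R was 0.98. The minus-strand record from 5010 to 5078 (ENSRNOG00000033932) stood at 109.9 (54.7–165) in Dahl S, 340.5 (220.4–461) in SHR and 160.4 (91.8–229) in Dahl R, and its limits were apart between Dahl S and SHR only. Of the 10 records alone at their locus, 8 were highest in SHR, 7 were lower in Dahl S than in SHR, and 5 were higher and 1 lower in SHR than in Dahl R.

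**Figure D3:**
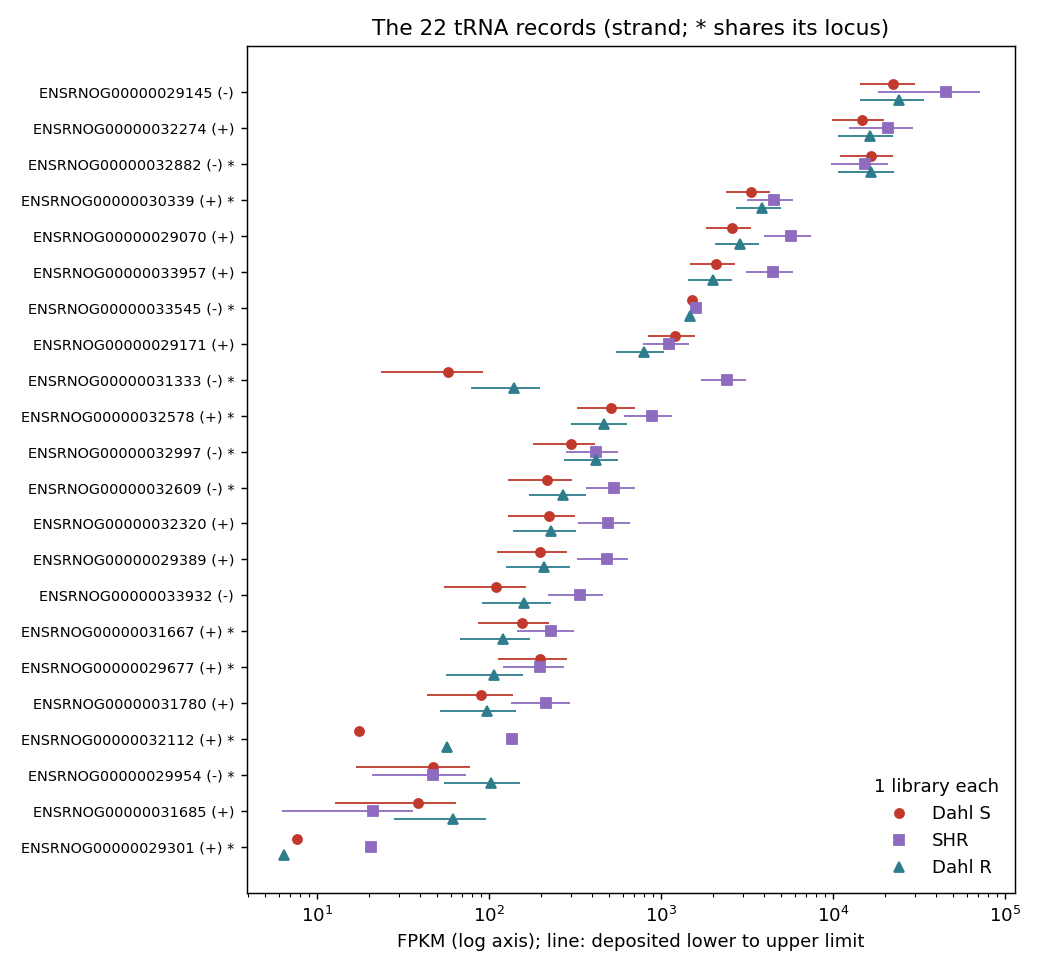
FPKM on a log axis of the 22 tRNA records, ordered by mean level, with the strand in parentheses and a star for records that share a locus; lines run between the deposited limits, and none is drawn where the lower limit is 0. The SHR point is the highest for 17 of 22, and ENSRNOG00000031333 has the widest distance, at 57.9 in Dahl S, 2419 in SHR and 139 in Dahl R.

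The most abundant tRNA records were as abundant as the leading messengers on this scale. The minus-strand record from 15348 to 15415 (ENSRNOG00000029145) stood at 22336 (14497–30176) in Dahl S, 45258 (18401–72116) in SHR and 24142 (14461–33822) in Dahl R, and its limits overlapped throughout. The record from 3835 to 3903 (ENSRNOG00000032274) stood at 14819 in Dahl S, 20864 in SHR and 16507 in Dahl R. By contrast, ENSRNOG00000032882, a minus-strand record in the locus of COX1, was lowest in SHR, at 16760.1 in Dahl S, 15391 in SHR and 16684 in Dahl R. Together the 3 leading records held 80.6% of tRNA FPKM in Dahl S, 77.3% in SHR and 80.9% in Dahl R. ENSRNOG00000030339, in the locus of CYB, was the next in level, at 3361 in Dahl S, 4529 in SHR and 3869.5 in Dahl R. At the low end, the record from 6937 to 7004 (ENSRNOG00000031685) ran against the class, at 38.5 (12.8–64.2) in Dahl S, 21.3 (6.25–36.4) in SHR and 61.9 (27.9–95.8) in Dahl R, with a ratio of -1.49 in SHR over Dahl R and overlapping limits.

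Of the other tRNA records, ENSRNOG00000029301 was lower still in every library, and ENSRNOG00000032112 was lower still in Dahl S and Dahl R. Their values are given below with the 13-record locus. The rest fell between these extremes. The record from 1 to 67 (ENSRNOG00000031780), alone at its locus, stood at 90.5 (43.5–138) in Dahl S, 216 (134–298) in SHR and 98 (51.8–144) in Dahl R, higher in SHR than in both others with overlapping limits. Dahl S was the highest library for ENSRNOG00000029171, between both rRNA records from 1026 to 1093, at 1209 (838–1579.8) in Dahl S, 1121 (791–1451) in SHR and 796 (548–1045) in Dahl R. It was also the highest for ENSRNOG00000029677, in the locus of ND2, at 199.6 in Dahl S, 198 in SHR and 107 in Dahl R. Neither passed 2-fold in any comparison. In the locus from 11606 to 11735, ENSRNOG00000032578 stood at 514 in Dahl S, 885 in SHR and 466 in Dahl R, again highest in SHR but short of 2-fold. ENSRNOG00000031667, in the same locus, had 155 in Dahl S, 229 in SHR and 121 in Dahl R, and the sum of the pair was 669 in Dahl S, 1114 in SHR and 587 in Dahl R. ENSRNOG00000032997, in the locus of ND5 and ND6, had 299 in Dahl S, 422 in SHR and 419.7 in Dahl R. ENSRNOG00000033545, in the 13-record locus, had 1519 in Dahl S, 1598 in SHR and 1477 in Dahl R, with lower limits of 0. None of these 3 passed 2-fold either.

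Set against the messengers of the same chromosome, tRNA FPKM was 0.673 of protein-coding FPKM in Dahl S, 0.862 in SHR and 0.604 in Dahl R. With the 3 leading tRNA records left out, it was 0.131 in Dahl S, 0.196 in SHR and 0.115 in Dahl R. When the 13 messengers were scaled to the same sum in each library, 8 tRNA records stayed higher and 2 lower in SHR over Dahl R in number, but in Dahl S over SHR only 4 were lower and 1 was higher. Many ratios of that comparison lie just past the 2-fold mark, so this count is sensitive to scale.

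The locus from 5081 to 5321 stood furthest apart. It held 3 minus-strand tRNA records and 1 plus-strand long non-coding record. ENSRNOG00000031333 stood at 57.9 (23.7–92) FPKM in Dahl S, 2419 (1718–3119.8) in SHR and 139 (78.8–199.7) in Dahl R, a level 17.4-fold higher in SHR than in Dahl R. Its ratio was -5.36 in Dahl S over SHR and 4.11 in SHR over Dahl R, with limits apart in both. Its neighbours did not share this size. ENSRNOG00000032609 stood at 218 (129.7–306) in Dahl S, 535 (367–704) in SHR and 271 (172–369) in Dahl R. ENSRNOG00000029954 stood at 47.4 (17–77.8) in Dahl S, 47.2 (21–73.4) in SHR and 103 (54.5–152) in Dahl R. The long non-coding record FQ229017 stood at 105 (69–142) in Dahl S, 248 (176–320.4) in SHR and 145 (99.1–191) in Dahl R. Summed, the locus had 428 in Dahl S, 3249.6 in SHR and 658 in Dahl R, a 4.94-fold higher level in SHR than in Dahl R. If the limits are read as counting error, the value of ENSRNOG00000031333 rests on about 11.5 fragments in Dahl S, 47.7 in SHR and 21.2 in Dahl R, although such implied numbers did not pass 48.1 for any of the 19 tRNA records with lower limits above 0 and are not read counts. This record held 0.27% of all FPKM in SHR, and without it the tRNA class took 11.6% there.

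**Figure D4:**
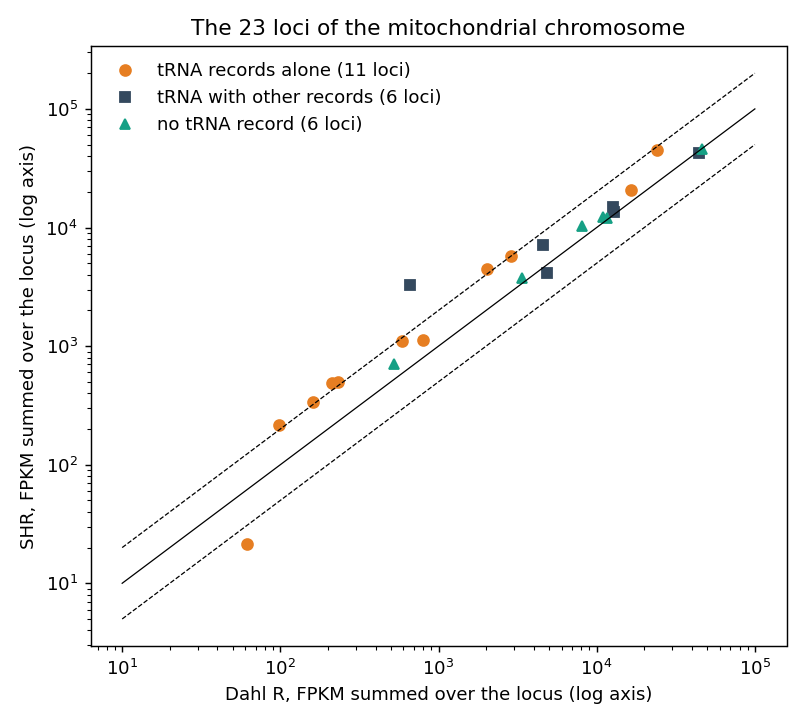
FPKM summed over each of the 23 mitochondrial loci in SHR (vertical) against Dahl R (horizontal), both on log axes, with equality as a solid line and 2-fold differences as dashed lines. Loci made up of tRNA records alone lie mostly near the upper dashed line, the locus from 5081 to 5321 lies above it at 3249.6 in SHR against 658 in Dahl R, and loci with messengers lie near equality except that of ND2, at 7102 in SHR against 4545 in Dahl R.

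A tRNA record of 64 to 69 bases is shorter than the fragments of 200 to 300 bases kept on the gel, so its FPKM depends on how fragments were counted against so short a target. Nuclear records under 100 bases are also shorter than these fragments. They are not a matched control, because the tRNA loci lie right beside other mitochondrial records and the neighbours of the nuclear records were not examined. Of 155 measured nuclear records under 100 bases, 18.7% were higher and 16.8% lower in SHR over Dahl R, and 27.1% were higher and 16.1% lower in Dahl S over SHR. In Dahl S over Dahl R, 28.4% were higher and 17.4% lower. Short records were thus often past 2-fold in both directions, in all 3 comparisons. Their median level was 4.2 FPKM in Dahl S, 3.71 in SHR and 3.32 in Dahl R, far below that of the tRNA records, at 221 in Dahl S, 515 in SHR and 250.5 in Dahl R. Among the 31 nuclear records under 100 bases with a mean of at least 30 FPKM, a minimum chosen after the data were seen, the median was 0.21 in SHR over Dahl R, with 2 higher and none lower. In Dahl S over SHR their median was -0.05, with 1 higher and none lower, and in Dahl S over Dahl R it was 0.19, with none past 2-fold. The part of fragment length or counting in the tRNA values was not tested.

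**Figure D5:**
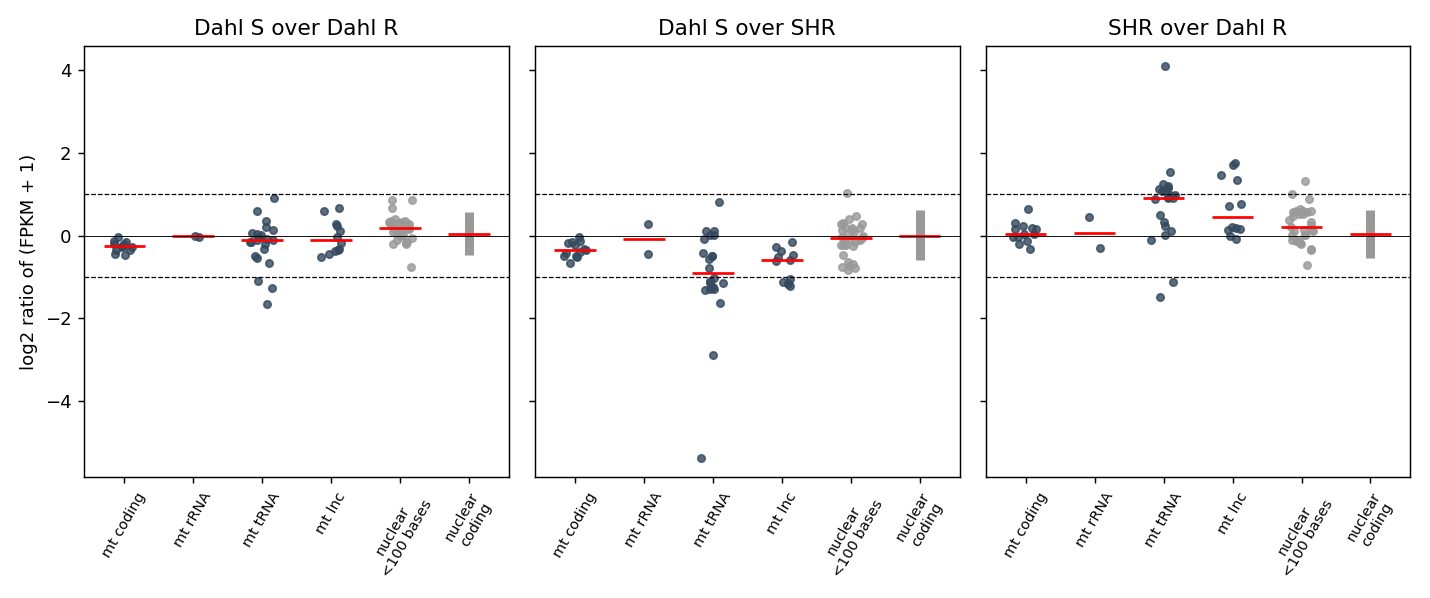
Log2 ratio of FPKM plus 1 in the 3 comparisons for measured mitochondrial protein-coding (13), rRNA (2), tRNA (22) and long non-coding (12) records, for the 31 nuclear records under 100 bases with a mean of at least 30 FPKM, and for nuclear protein-coding records. The short nuclear records are not a matched control for the tRNA records. Points are records, red lines are medians, the grey bar spans 90% of nuclear protein-coding records, and dashed lines mark 2-fold; tRNA medians are -0.11 in Dahl S over Dahl R, -0.90 in Dahl S over SHR and 0.92 in SHR over Dahl R.

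The 17 long non-coding records all shared a locus, 11 on the minus and 6 on the plus strand. Of these, 5 stood above 500 FPKM in every library. The most abundant was FQ213809, on the minus strand in the locus of CYB, at 2608 (1054–4162) in Dahl S, 3377 (998–5756) in SHR and 2955 (1082–4828) in Dahl R. FQ220842, on the minus strand in the locus of ND1, stood at 1867 (0–42485) in Dahl S, 2793 (2694–2893) in SHR and 2426 (2304–2549) in Dahl R. AY604720, opposite the first rRNA record, stood at 2249 in Dahl S, 2505 in SHR and 2287 in Dahl R. Each of these 3 lies opposite a more abundant rRNA or messenger. FQ214928, at 531 in Dahl S, 736 in SHR and 659.8 in Dahl R, shares the locus of ND1 as well, and FQ224241, at 569 in Dahl S, 688 in SHR and 729 in Dahl R, is listed with ND5 and ND6.

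The locus from 15580 to 16299 held long non-coding records only, 1 on each strand. Plus-strand FQ214541 stood at 307 (218–396) in Dahl S, 471 (332–609.9) in SHR and 285 (203–368) in Dahl R, and was highest in SHR with overlapping limits. Minus-strand FQ211588 stood at 168 (119–216) in Dahl S, 239.99 (168–312) in SHR and 241 (170.2–312) in Dahl R, and was lowest in Dahl S. The locus sum was 474 in Dahl S, 711 in SHR and 527 in Dahl R. Of 12 measured long non-coding records, 5 were lower in Dahl S than in SHR, FQ229017 with limits apart, beside 2.34% of all measured records. In SHR over Dahl R, 4 were higher, none with limits apart, beside 2.52% of all measured records. These 4 were FQ213291, FQ213775, FQ229799 and FQ230123. All lie in the 13-record locus, with 10.5 FPKM as their highest value, whose sum was 11821 in Dahl S, 13510.4 in SHR and 12914 in Dahl R. FQ211711 was under the minimum, and FQ210752, FQ216953, FQ218271 and FQ218419 were listed at 0 in all 3 libraries. In the same 13-record locus, the tRNA records ENSRNOG00000029301, at 7.65 in Dahl S, 20.6 in SHR and 6.48 in Dahl R, and ENSRNOG00000032112, at 17.6 in Dahl S, 137 in SHR and 56.8 in Dahl R, had lower limits of 0 throughout.

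Nuclear genes that serve the mitochondrial chromosome were read from the same libraries. Matched were 9 of 15 genes of transcription and replication, 15 of 20 of RNA processing and stability and 7 of 7 coactivators and their partners, and none of them was called in any comparison. Genes of RNA processing that found no match, and so were not examined, were *Lrpprc*, *Trmt10c*, *Hsd17b10*, *Prorp* and *Fastkd2*. Of all measured records, 4.04% were past 2-fold in Dahl S over Dahl R, 5.06% in Dahl S over SHR and 4.4% in SHR over Dahl R, so a count of 0 in lists this short is near that share. Their median ratios were 0.06, 0.08 and 0.01 in Dahl S over Dahl R, -0.02, -0.02 and 0.01 in Dahl S over SHR, and 0.11, 0.09 and -0.02 in SHR over Dahl R. *Tfam*, which packages mitochondrial DNA and starts its transcription, stood at 25.4 (19–31.8) FPKM in Dahl S, 25.8 (19.8–31.7) in SHR and 23.8 (17.9–29.8) in Dahl R. *Polg*, the replicative DNA polymerase, stood at 16.4 in Dahl S, 14.6 in SHR and 16.5 in Dahl R. *Fastk*, a mitochondrial RNA-binding protein linked to ND6 messenger, stood at 90.8 (66.1–115) in Dahl S, 88 (65.2–111) in SHR and 81.3 (59.1–103) in Dahl R. *Rexo2*, an oligonucleotide exonuclease, stood at 49.9 in Dahl S, 44 in SHR and 36.1 in Dahl R. *Ppargc1a*, the coactivator of mitochondrial biogenesis, stood at 26.4 (19.9–32.9) in Dahl S, 33.4 (25.9–40.8) in SHR and 34.1 (26.4–41.8) in Dahl R, and the nuclear receptor *Esrra* at 33 in Dahl S, 36.2 in SHR and 31.8 in Dahl R. Limits overlapped for all of these.

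Nuclear subunits and assembly factors of oxidative phosphorylation, taken by name (Nduf, Sdh, Uqcr, Cox and Atp5), were 93 records with a summed share of 2.44% in Dahl S, 2.42% in SHR and 2.48% in Dahl R. The median ratio of the 92 measured was -0.02 in Dahl S over Dahl R, -0.10 in Dahl S over SHR and 0.08 in SHR over Dahl R. The most abundant, *Atp5b*, the catalytic subunit of ATP synthase, stood at 2262 in Dahl S, 2031 in SHR and 2326 in Dahl R, near the level of ND5. *Cox8a* stood at 1467 in Dahl S, 1447 in SHR and 1495 in Dahl R, and *Atp5a1* at 942 in Dahl S, 991 in SHR and 987 in Dahl R. Past 2-fold were *Cox8b*, higher in Dahl S and in SHR than in Dahl R, and *Cox6b2*, higher in SHR than in Dahl R, named after their values were seen. These calls were 1.09% of the 92 measured in Dahl S over Dahl R and 2.17% in SHR over Dahl R. Among all measured records, 2.32% and 2.52% were higher there, so the calls are no more frequent than that. *Cox6b2* was low, at 2.80 in Dahl S, 5.15 in SHR and 1.17 in Dahl R. *Cox8b*, an isoform of heart, muscle and brown fat, stood at 7.98 (3.46–12.5) in Dahl S, 14.9 (8.64–21.2) in SHR and 2.86 (0.837–4.88) in Dahl R.

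Markers of several cell types differed between the libraries beside these values. The summed level of 11 matched proximal tubule markers was 5091 FPKM in Dahl S, 3776 in SHR and 5222 in Dahl R, and that of 4 thick ascending limb markers was 4733 in Dahl S, 6831 in SHR and 5444 in Dahl R. Of the 11 proximal tubule markers, 9 were higher in Dahl S than in SHR, and none was higher in SHR than in Dahl R. *Gatm* was lowest in SHR, at 240.6 in Dahl S, 112.6 in SHR and 240.8 in Dahl R, with limits apart from both Dahl strains. *Aqp1* was lowest in Dahl S, at 754 in Dahl S, 836 in SHR and 917 in Dahl R. *Pck1* was too, at 90.4 in Dahl S, 164 in SHR and 324 in Dahl R, with limits apart between the Dahl strains. The first sum was mostly *Miox*, *Slc34a1* and *Aqp1*, and was lowest in SHR. The second was mostly *Umod*, whose limits ran from 0 to 17164 in Dahl R; *Slc12a1* had 299.9 in Dahl S, 485 in SHR and 364 in Dahl R, *Egf* 288 in Dahl S, 449.6 in SHR and 495 in Dahl R, and *Cldn10* 116 in Dahl S, 114 in SHR and 109 in Dahl R. Collecting duct markers (7) summed to 757 in Dahl S, 1114 in SHR and 711 in Dahl R. The 4 adipocyte markers were *Ucp1*, *Cidea*, *Fabp4* and *Lpl*, of which *Fabp4* and *Lpl* are not particular to brown fat. All were at least 2-fold higher in SHR than in either Dahl strain. They summed to 137 in Dahl S, 429 in SHR and 100.1 in Dahl R. Of all measured records, 2.34% were lower in Dahl S than in SHR and 2.52% higher in SHR than in Dahl R. Red blood cell markers (4) summed to 12880.1 in Dahl S, 2968 in SHR and 5329 in Dahl R, and 10 haemoglobin records held a share of 1.75% in Dahl S, 0.378% in SHR and 0.726% in Dahl R. With the 10 haemoglobin records left out, the mitochondrial share was 22.3% in Dahl S, 28.2% in SHR and 25% in Dahl R. Leaving them out does not remove other RNA of blood cells. Summed levels ranged from 326 to 437 FPKM for 4 distal convoluted tubule markers, from 117 to 136 for 3 podocyte markers and from 326 to 451 for 3 macrophage markers. No marker of these lists was listed at 0 in all libraries; *Pvalb* was lowest, at 0.133 in Dahl S, 0.347 in SHR and 0.00298 in Dahl R. The part of cell type makeup in the mitochondrial values was not tested.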

How the data were processed

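Kidney RNA depleted of rRNA was sequenced in 3 libraries, 1 per strain, and fragments of 200 to 300 bases were selected, per the labels' protocols. The authors deposited FPKM with a lower and an upper limit for 33194 records per library, where the submitters' processing notes name TopHat 1.3.1 and Cufflinks 1.0.3. Build, annotation, options, strand use and read totals were not given in the sources used here. Record length as deposited equals the span of the locus on chromosome M and is not a transcript length. Starts are given counted from 1.

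Ratios are log2 of FPKM plus a pseudocount of 1, computed with Python 3.11.15, numpy 2.4.6 and pandas 2.3.3, and figures with matplotlib 3.10.9. A record was measured from a mean of 1 FPKM upward, and a log2 ratio of 1 in size was called. The calling step was run on simulated data with planted changes larger than the threshold, which checks the code and not the calls in these data. A fragment number was implied where the distance from value to lower limit is 2 times the value over the square root of that number; depth used low nuclear protein-coding records where it was whole within 0.01 and at most 20.

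Members and lists were chosen with earlier results of these data known. Text names every protein-coding, rRNA and long non-coding member, the 4 highest and 2 lowest tRNA records by mean and those 2-fold apart with limits apart, and from nuclear lists the 2 most abundant members (3 for oxidative phosphorylation) or those 2-fold apart; the other tRNA records were added. List genes were matched by name, UniProt entry name or RefSeq protein accession. The mitochondrial rescaling, the 0.9 threshold and the counts of tRNA records alone at their locus were added after the data were seen.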

Additional observations from a re-analysis of the deposited data

How the results depend on the processing

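No paired analysis was possible because each strain had 1 library, and for the same reason no replicate could be left out. Counts of members past 2-fold changed most with what was counted. In Dahl S over Dahl R the 3 calls became 5 with a pseudocount of 0.1, 1 without records with a locus span under 300 bases, 0 with limits apart and 0 with the records of a locus summed; the tRNA calls, also 3, became 0 for records alone at their locus and 0 with limits apart. In Dahl S over SHR the 16 calls became 6 without the short spans, 8 with limits apart and 8 with loci summed; the 11 tRNA calls became 7 of 10 records alone at their locus, 7 with limits apart and 5 with the 13 messengers scaled to the same sum. In SHR over Dahl R the 14 calls became 6 without the short spans, 4 with limits apart and 7 with loci summed; the 10 tRNA calls became 6 of 10 alone at their locus and 4 with limits apart, while 15 of 22 passed the 0.9 threshold. Fewer records were tested in the span, single-locus and summed counts; otherwise the cause was not tested. A pseudocount of 5, other minimum means and the 3 scalings on nuclear records kept the counts within 1.5 times. The median ratio of the messengers moved by at most 0.1 under every alternative run, down to 0.0005 in SHR over Dahl R after upper-quartile scaling. Of 105 values of single protein-coding and rRNA records per comparison, none reached 2-fold, and 1, 1 and 3 changed sign in Dahl S over Dahl R, Dahl S over SHR and SHR over Dahl R. The ratios of rRNA and of ND6 to messengers could not be recomputed on summed loci, since the locus of the second rRNA record and that of ND6 also hold another messenger.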
